A study of Mus musculus with 5 samples.

Results

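The genes described here are 34 transcripts of glycolysis and of the cellular answer to low oxygen, measured by RNA sequencing in macrophages taken from mouse tumors. They were chosen by name, and all 34 were found among the 24982 rows of the authors' deposited table, each in a row of its own and each tested. Of them, 16 are glycolytic enzymes with their regulators, and 18 are other hypoxia genes. The MEK1-hi group has 3 libraries of tumor macrophages from the MCA fibrosarcoma line 9609 MEK1-hi, with MEK1-hi exosomes as the treatment. The MEK1-low group has 2 libraries from 9609 MEK1-low, with MEK1-low (GFP) exosomes. MEK1 is the kinase that phosphorylates ERK, and exosomes are small vesicles shed by cells. By its title the series is about growing and rejecting tumors, but which group is which is not said, and the labels name neither the mouse strain, the age of the animals nor how the macrophages were isolated. They also do not say whether the libraries came from separate animals, so the authors' p and q values reflect only how much these samples vary, and that variation may be technical.

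Glycolysis turns glucose into pyruvate in a chain of enzymes, and lactate dehydrogenase turns pyruvate into lactate. When oxygen is short, the prolyl hydroxylases that mark the HIF alpha subunits for destruction slow down, and HIF then drives transcription of most of these enzymes and of genes for vessel growth, mitophagy and pH control. In macrophages the same program is also switched on by inflammatory signals, and both glycolysis and HIF activity are associated with inflammatory activation.

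Each group has 1 FPKM per gene, a level scaled to the length of the transcript and the number of mapped fragments. The authors pooled it over the group's libraries, so no SD can be given. Levels of different genes can be compared per length, as far as reads were assigned to the right gene. The 11 macrophage markers were all present, at 23.1 to 6372 FPKM in MEK1-hi and 25.2 to 4999 FPKM in MEK1-low, with Lyz2 and C1qa the most abundant and 0 called. Their sum was 19320 FPKM in MEK1-hi and 16537 FPKM in MEK1-low, a ratio of 1.17, against 1.10 for all tested rows. Of these markers 7 lay higher in MEK1-hi and 4 lower, with a median log2 fold change of 0.20. Markers of some other cells differed between the groups. All 12 fibroblast and fibrosarcoma markers were lower in MEK1-hi, 4 of them called (Acta2, Col6a3, Thy1 and Col5a1), and their summed level was 799 FPKM in MEK1-hi and 1347 FPKM in MEK1-low. All 5 tested markers of T and NK cells, led by Gzmb and Cd3g, were higher in MEK1-hi and 0 were called. Over all 7 rows found for that list, tested or not, the sum was 14.5 FPKM in MEK1-hi and 6.85 FPKM in MEK1-low. Summed in the same way over all rows found, neutrophil markers came to 85.9 FPKM in MEK1-hi and 93.7 FPKM in MEK1-low. Of the 5 tested, 2 lay higher in MEK1-hi and 3 lower. Csf3r had 36.6 FPKM in MEK1-hi and 26.2 FPKM in MEK1-low, and Mmp9 had 22.5 FPKM in MEK1-hi and 37.6 FPKM in MEK1-low. Cxcr2, Ly6g and Mmp8 were not tested and had at most 0.341 FPKM in either group. Endothelial markers (led by Pecam1 and Cdh5) summed to 12.0 FPKM in MEK1-hi and 11.5 FPKM in MEK1-low. Red cell markers summed to 18.7 FPKM in MEK1-hi and 26.2 FPKM in MEK1-low.

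None of the 34 genes passed the test. The test in the authors' deposited table, by Cuffdiff, called 0 of the 34 genes at a q (adjusted p) of 0.05, while it called 1.32% of all 12311 tested rows. Rows called higher in MEK1-hi were 0.999% of those tested, and rows called lower 0.325%. An unadjusted p under 0.05 was found for 1 gene, Pfkp, against 6.08% of tested rows. A difference of more than 1.5-fold was found for 3 genes (Pfkp and Aldoc higher, P4ha2 lower in MEK1-hi), against 9.88% of tested rows. The median log2 fold change of MEK1-hi over MEK1-low was 0.05 over the 34 genes and -0.02 over all tested rows. The differences were small, within 0.25 on the log2 scale for 24 of the 34 genes (70.6%) and for 64.9% of all tested rows. The largest difference among the 34 was 0.77, and the smallest difference that Cuffdiff called anywhere in the table was 0.82. A q that misses the threshold does not show that the groups were equal.

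The scaling sets the sign of the smallest differences. FPKM summed over all tested rows was higher in MEK1-hi, by 0.13 on the log2 scale, and rescaling both groups to the same sum would lower each log2 fold change by that amount. As deposited, 19 of the 34 genes (55.9%) lay above 0 and 15 below, against 46.2% of all tested rows above 0. After such rescaling, 11 of the 34 genes lay above and 23 below. The median of all tested rows was then -0.15, and 73.2% of them lay below Aldoa, itself at 0.00. The 8 genes between 0 and 0.13 as deposited have no direction that holds under both scalings.

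**Figure D1:**
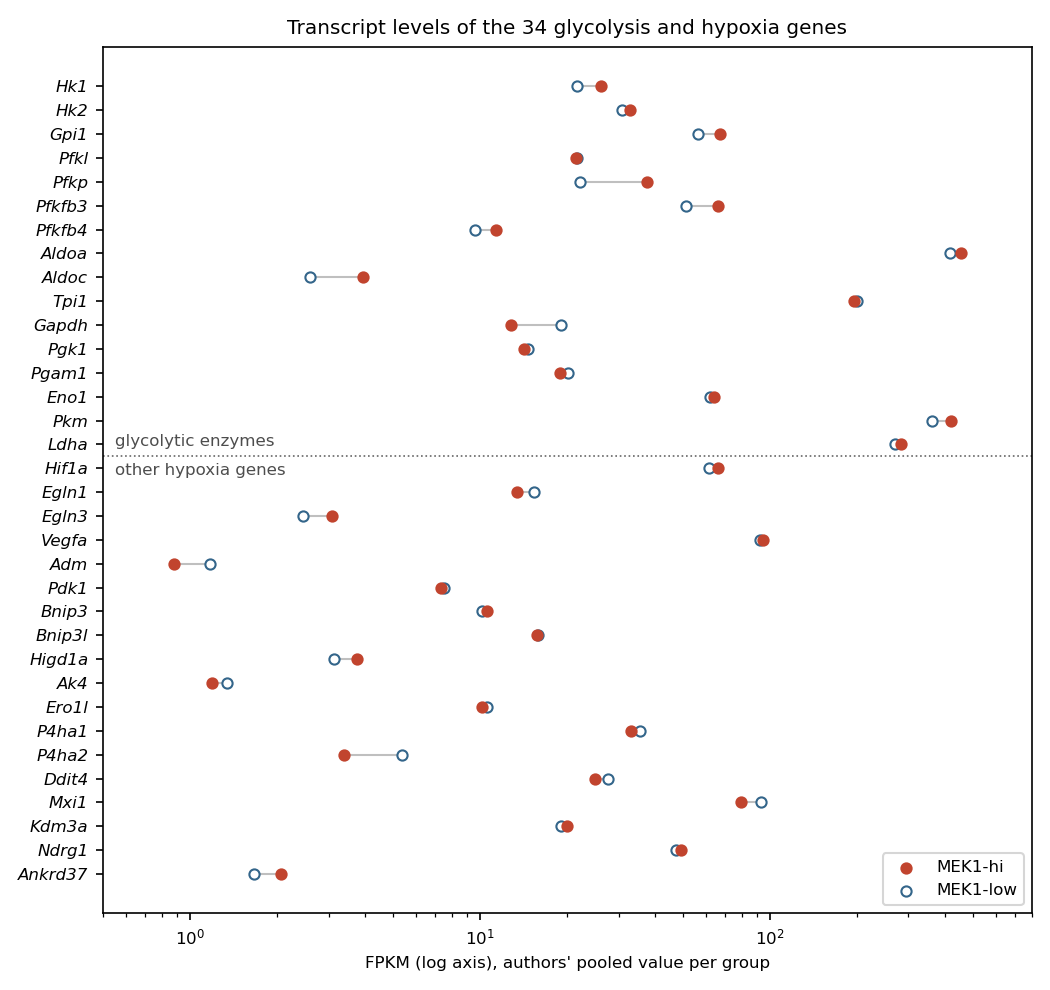
FPKM of each of the 34 genes on a log axis, with a filled point for MEK1-hi and an open point for MEK1-low, each the authors' pooled value. Levels ran from 0.877 FPKM (Adm) to 456 FPKM (Aldoa) in MEK1-hi, and the pair of points lies close together for most genes.

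**Figure D2:**
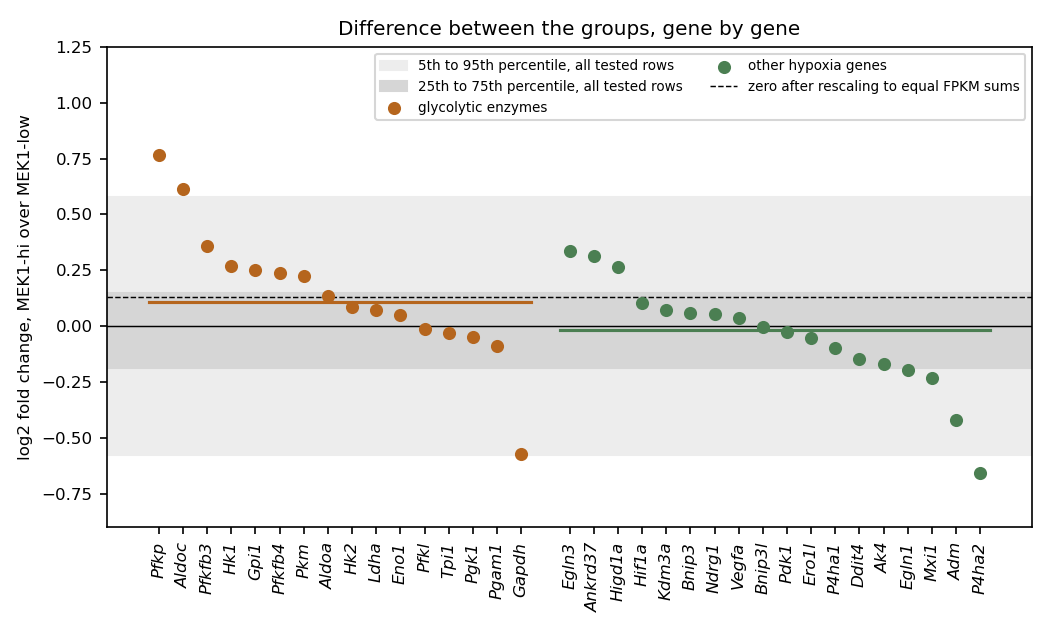
Log2 fold change of MEK1-hi over MEK1-low for each gene, ordered within the glycolytic enzymes and the other hypoxia genes; horizontal bars are group medians (0.11 and -0.02), the shaded bands span the 25th to 75th and the 5th to 95th percentile of all tested rows, and the dashed line is where 0 would lie after rescaling to equal sums. Pfkp and Aldoc lie above the outer band, which ends at 0.58, and P4ha2 lies below its lower end of -0.58.

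The promoters of the genes with the largest and the smallest log2 fold change in each of the 2 sets are shown here, from the 250 bases before the start site in RefSeq's table on GRCm38.p6, 5′ to 3′ on the gene's strand, since they mark the upper and lower end of each set and can be read for HIF's core motif. Capitals mark ACGTG or GCGTG on either strand, the core letters that HIF binds. Pfkp lies at chr13:6648772-6649021 (minus strand), Gapdh at chr6:125165774-125166023 (minus), Egln3 at chr12:54203875-54204124 (minus) and P4ha2 at chr11:54100674-54100923 (plus).
Pfkp: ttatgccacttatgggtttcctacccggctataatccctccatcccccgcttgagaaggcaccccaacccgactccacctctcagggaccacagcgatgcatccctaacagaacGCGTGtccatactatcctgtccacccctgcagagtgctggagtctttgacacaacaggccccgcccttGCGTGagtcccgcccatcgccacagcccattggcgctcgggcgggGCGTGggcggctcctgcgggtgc
Gapdh: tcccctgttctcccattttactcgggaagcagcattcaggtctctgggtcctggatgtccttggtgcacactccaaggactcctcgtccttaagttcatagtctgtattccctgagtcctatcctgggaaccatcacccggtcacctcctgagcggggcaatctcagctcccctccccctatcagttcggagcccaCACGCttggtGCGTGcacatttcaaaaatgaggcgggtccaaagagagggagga
Egln3: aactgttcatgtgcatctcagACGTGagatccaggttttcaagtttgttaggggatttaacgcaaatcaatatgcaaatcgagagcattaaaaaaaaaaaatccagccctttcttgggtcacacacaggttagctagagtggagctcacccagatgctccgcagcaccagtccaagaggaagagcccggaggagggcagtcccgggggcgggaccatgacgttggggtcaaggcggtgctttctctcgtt
P4ha2: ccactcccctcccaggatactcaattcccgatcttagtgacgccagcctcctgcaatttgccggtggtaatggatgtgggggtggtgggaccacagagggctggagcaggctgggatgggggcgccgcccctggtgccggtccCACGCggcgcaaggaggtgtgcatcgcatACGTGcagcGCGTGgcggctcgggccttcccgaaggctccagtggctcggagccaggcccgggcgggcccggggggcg
The start site behind the Gapdh window lies inside the authors' locus of the gene, not at its end. The core occurred 3 times in the Pfkp window, all as GCGTG, 2 times as GCGTG in that of Gapdh, 1 time as ACGTG in that of Egln3, and in that of P4ha2 1 time as ACGTG and 2 times as GCGTG. Both the genes highest and those lowest in MEK1-hi thus held it.

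RefSeq's table held a promoter for 32 of the 34 genes, Ero1l under its newer symbol, and Bnip3l and Ndrg1 are named only. Of 50 windows for these 32 genes, 40 (80.0%) held ACGTG or GCGTG on either strand, against 38.6% of all 32851 windows of the same length. ACGTG was in 44.0% of the genes' windows and 16.6% of all windows, and GCGTG was in 56.0% of the genes' windows and 28.2% of all windows. The median GC content was 62.8% in the genes' windows and 52.4% in all windows, and windows of 1 gene can overlap. The share of windows with either core was 80.0% for the glycolytic enzymes and 80.0% for the other hypoxia genes. Counted by gene, the sets were less alike. At least 1 window held either core for 14 of 16 glycolytic enzymes and for 16 of the 16 other hypoxia genes with a promoter. Over all 27025 genes with a promoter the share was 41.5%. ACGTG was found for 7 of these enzymes and 12 of these hypoxia genes, and GCGTG for 10 and 13. Over all genes, ACGTG was found for 18.5% and GCGTG for 30.9%. These differences between the sets were not tested. CACGTG, the E-box that holds ACGTG and that MYC and the Mxi1 product's partner MAX bind, was in 5 of the 50 windows (10%, against 6.02% of all). TTCNNNGAA, the letters of the interferon-gamma activated site, was in 2 (4%, against 7.02% of all). A match describes letters in a window and not a bound site.

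Among the glycolytic enzymes, 11 of 16 lay above 0 and 5 below, with a median log2 fold change of 0.11 and 0 called. Their summed level was 1731 FPKM in MEK1-hi and 1577 FPKM in MEK1-low, a ratio of 1.10, which equals the ratio of all tested rows' sums to this precision. After rescaling to equal sums the median was -0.02, with 8 of 16 above 0. The median over all tested rows was then -0.15. A short list of transcripts made up most of the sum: Aldoa, Pkm, Ldha and Tpi1 held 78.3% of it in MEK1-hi and 78.95% in MEK1-low. Reads that match annotated pseudogenes could shift these shares, as described below for Gapdh, and this was not tested.

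Hexokinases trap glucose in the cell as glucose-6-phosphate. Hk1, the widely expressed form, had 26.1 FPKM in MEK1-hi and 21.7 FPKM in MEK1-low, and Hk2, the form that HIF induces, had 32.8 FPKM in MEK1-hi and 30.9 FPKM in MEK1-low. Neither was called (q = 0.9998 for each in the authors' deposited table). Hk3, the hexokinase typical of myeloid cells, is not one of the 34 genes but was the most abundant of the 3 in these macrophages, and it was called. It had 98.9 FPKM in MEK1-hi and 47.2 FPKM in MEK1-low, a log2 fold change of 1.07 (0.94 after rescaling to equal sums), with a statistic of 2.70 and q = 0.012 in the authors' deposited table. Its row carries the mm10 locus on chromosome 13, 54949411 to 55021385, shared with Unc5a, which had 3.00 FPKM in MEK1-hi and 4.10 FPKM in MEK1-low. Grouped by enzyme family after the values were seen, Hk1, Hk2 and Hk3 summed to 158 FPKM in MEK1-hi and 99.8 FPKM in MEK1-low, a ratio of 1.58. Hk3 held 62.7% of that sum in MEK1-hi and 47.3% in MEK1-low, while Hk1 and Hk2 together had 58.8 FPKM in MEK1-hi and 52.6 FPKM in MEK1-low. The difference in total hexokinase transcript thus lay mostly in Hk3. In bulk RNA, fewer cells of a type and less RNA per cell cannot be told apart.

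Phosphofructokinase is the committed and most tightly controlled step. Pfkp, its platelet-type subunit, had 37.5 FPKM in MEK1-hi and 22.1 FPKM in MEK1-low, 1.70-fold higher, the largest log2 fold change of the 34 genes (0.77, above 96.8% of tested rows). It was not called (statistic 1.38, unadjusted p = 0.0351, q = 0.685 in the authors' deposited table). The row's locus, chromosome 13 from 6548157 to 6648771 on mm10, is shared with Pitrm1, which lay below 0 with 28.5 FPKM in MEK1-hi and 38.5 FPKM in MEK1-low, also not called. Pfkl, the liver-type subunit, had 21.5 FPKM in MEK1-hi and 21.6 FPKM in MEK1-low, and the muscle-type Pfkm, outside the 34, had 8.18 FPKM in MEK1-hi and 8.59 FPKM in MEK1-low. Pfkp thus held 55.9% of the summed phosphofructokinase level in MEK1-hi and 42.2% in MEK1-low. The summed T and NK cell markers were also higher in MEK1-hi, at 14.5 FPKM against 6.85 FPKM in MEK1-low, and their part in the Pfkp value was not tested.

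The PFKFB enzymes set the level of the fructose bisphosphate that activates phosphofructokinase. Pfkfb3, the form with the strongest kinase activity, had 65.9 FPKM in MEK1-hi and 51.4 FPKM in MEK1-low (log2 fold change 0.36, p = 0.155 in the authors' deposited table), and Pfkfb4 had 11.4 FPKM in MEK1-hi and 9.63 FPKM in MEK1-low (0.24). Pfkfb3 held 80.3% of the family's sum in MEK1-hi and 77.6% in MEK1-low. Both differences stayed above 0 after rescaling, at 0.23 and 0.11, and neither gene was called. Gpi1, the isomerase between hexokinase and phosphofructokinase, had 67.1 FPKM in MEK1-hi and 56.5 FPKM in MEK1-low.

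**Figure D3:**
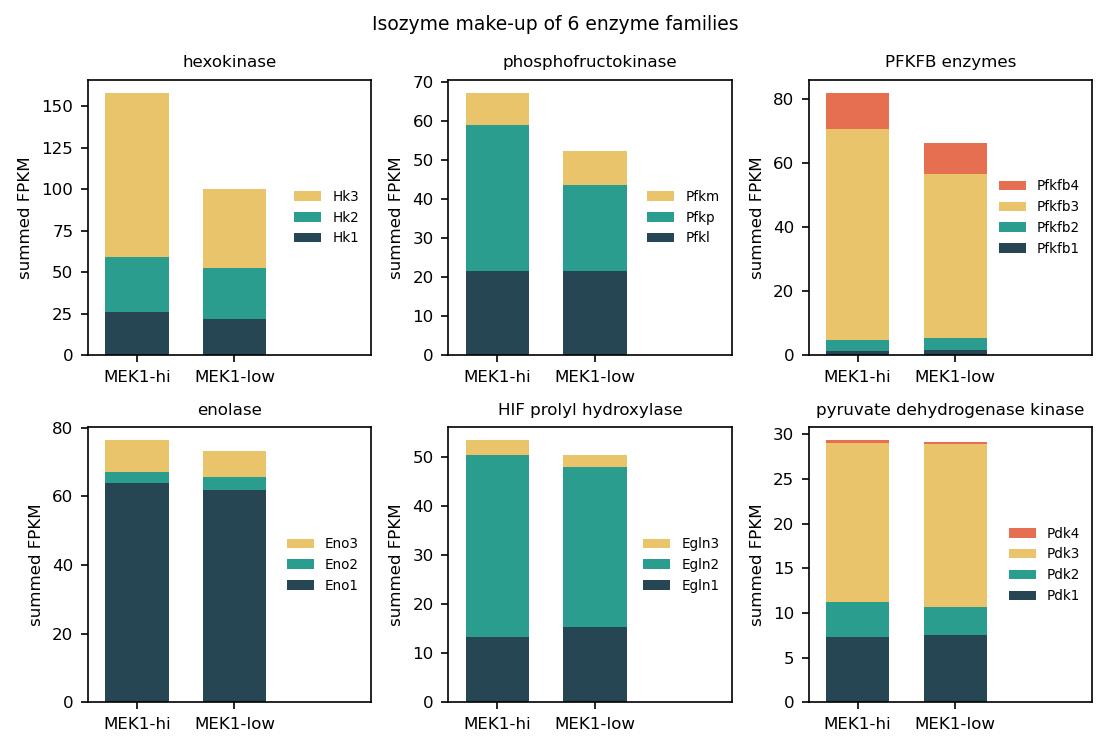
Summed FPKM of the genes of 6 enzyme families, stacked by gene, MEK1-hi left and MEK1-low right in each panel, from the authors' pooled values with no error bar. The hexokinase stack reaches 158 FPKM in MEK1-hi and 99.8 FPKM in MEK1-low, mostly through Hk3, whereas the pyruvate dehydrogenase kinase stacks reach 29.3 FPKM in MEK1-hi and 29.1 FPKM in MEK1-low.

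Aldolase splits the sugar. Aldoa was the most abundant of the 34 transcripts in both groups, with 456 FPKM in MEK1-hi and 416 FPKM in MEK1-low (log2 fold change 0.13, and 0.00 after rescaling). Aldoc, the brain-type form, was 1.53-fold higher in MEK1-hi but scarce, with 3.95 FPKM in MEK1-hi and 2.58 FPKM in MEK1-low, and was not called (p = 0.0915 in the authors' deposited table). It made up 0.858% of the 2 aldolase transcripts in MEK1-hi and 0.617% in MEK1-low. Tpi1, which interconverts the split products, had 194 FPKM in MEK1-hi and 199 FPKM in MEK1-low.

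Of the enzymes after the sugar is split, Gapdh had the widest difference. It had 12.8 FPKM in MEK1-hi and 19.0 FPKM in MEK1-low, the lowest log2 fold change of the enzymes (-0.57, or -0.70 after rescaling), and was not called (p = 0.0764, q = 0.947 in the authors' deposited table). Only 5.05% of tested rows had a lower log2 fold change. GENCODE M21 holds 169 annotated pseudogenes with at least 90% identity to the Gapdh transcript over at least 300 bases, so the authors' assignment of reads could shift this value, and the handling of such reads is not given in the sources used here. Its locus is chromosome 6, 125161852 to 125166467 on mm10. The next steps lay closer to 0. Pgk1, which makes ATP from the product of Gapdh, had 14.1 FPKM in MEK1-hi and 14.6 FPKM in MEK1-low. Pgam1, the mutase, had 18.8 FPKM in MEK1-hi and 20.02 FPKM in MEK1-low, and Eno1, the enolase, had 64.1 FPKM in MEK1-hi and 61.9 FPKM in MEK1-low. All 3 lay within 0.09 of 0 on the log2 scale as deposited.

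Pkm, the pyruvate kinase gene, had 422 FPKM in MEK1-hi and 362 FPKM in MEK1-low (log2 fold change 0.22), and Ldha, the lactate dehydrogenase subunit that favours lactate formation, had 282 FPKM in MEK1-hi and 269 FPKM in MEK1-low (0.07). Pkm makes more than one splice form, which a value per gene cannot separate. Ldha held 96.2% of the sum of Ldha and Ldhb in MEK1-hi and 95.02% in MEK1-low.

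The other hypoxia genes were centred near 0, with 8 of 18 above and 10 below, 0 called, and a median log2 fold change of -0.02. Their sum was 439 FPKM in MEK1-hi and 451 FPKM in MEK1-low, a ratio of 0.973. The median of the glycolytic enzymes lay 0.13 above theirs. This is a description of 2 sets of genes, which are not replicates, and no test was made of it. Other pseudocounts, a filter at 10 FPKM, moving Pdk1 to the enzymes or leaving out Hif1a gave gaps of 0.09 to 0.14. Moving Pfkfb3 and Pfkfb4 to the other hypoxia genes gave 0.06. Leaving out the genes with 5 or more annotated pseudogenes, chosen after seeing the data, gave 0.26.

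The factor and its sensors did not pass the test. Hif1a, which encodes the inducible alpha subunit, had 66.0 FPKM in MEK1-hi and 61.5 FPKM in MEK1-low, and made up 98.7% of the HIF alpha transcripts in MEK1-hi and 98.1% in MEK1-low. Epas1, which encodes the second alpha subunit, had 0.829 FPKM in MEK1-hi and 1.17 FPKM in MEK1-low. HIF alpha is controlled mainly at the protein level, which these data do not measure. Egln1, the main oxygen sensor among the prolyl hydroxylases, had 13.4 FPKM in MEK1-hi and 15.3 FPKM in MEK1-low. Egln3, a hydroxylase that is itself a HIF target, had 3.08 FPKM in MEK1-hi and 2.44 FPKM in MEK1-low, the largest log2 fold change of the 18 (0.34, p = 0.376 in the authors' deposited table). The constitutive Egln2 was the most abundant of the 3, with 36.9 FPKM in MEK1-hi and 32.6 FPKM in MEK1-low.

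Among secreted products, Vegfa, the main growth factor for vessels, had 94.7 FPKM in MEK1-hi and 92.3 FPKM in MEK1-low, a log2 fold change of 0.04. Adm, a vasodilator peptide, was the scarcest of the 34, with 0.877 FPKM in MEK1-hi and 1.17 FPKM in MEK1-low. The mitochondrial group had 2 of 5 above 0. Pdk1, which shuts pyruvate dehydrogenase, had 7.35 FPKM in MEK1-hi and 7.49 FPKM in MEK1-low, in a locus shared with 8 other rows. The mitophagy receptors were also close between the groups. Bnip3 had 10.5 FPKM in MEK1-hi and 10.1 FPKM in MEK1-low, and Bnip3l had 15.7 FPKM in MEK1-hi and 15.8 FPKM in MEK1-low. Higd1a, a mitochondrial stress protein, had 3.76 FPKM in MEK1-hi and 3.13 FPKM in MEK1-low, and Ak4, an adenylate kinase, had 1.19 FPKM in MEK1-hi and 1.34 FPKM in MEK1-low.

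All 3 genes of the endoplasmic reticulum lay below 0. P4ha2, a collagen prolyl hydroxylase subunit, had 3.39 FPKM in MEK1-hi and 5.36 FPKM in MEK1-low, the lowest log2 fold change of the 34 (-0.66), and was not called (statistic -1.19, p = 0.0687, q = 0.906 in the authors' deposited table). It lies on chromosome 11, 54100924 to 54131667 on mm10. P4ha1, the major subunit gene, had 33.2 FPKM in MEK1-hi and 35.6 FPKM in MEK1-low, and Ero1l, the oxidase that forms disulfide bonds, had 10.2 FPKM in MEK1-hi and 10.6 FPKM in MEK1-low. Collagen-making cells use both hydroxylases. The fibroblast and fibrosarcoma markers were lower in MEK1-hi in 12 of 12 cases (799 FPKM in MEK1-hi and 1347 FPKM in MEK1-low summed, median log2 fold change -0.89), and their part in the P4ha2 value was not tested.

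Genes of growth and transcription control split 3 above and 2 below 0. Mxi1, a MYC antagonist, had 79.5 FPKM in MEK1-hi and 93.3 FPKM in MEK1-low (log2 fold change -0.23), and Ddit4, an inhibitor of mTORC1, had 24.9 FPKM in MEK1-hi and 27.6 FPKM in MEK1-low. Kdm3a, a histone demethylase, had 19.96 FPKM in MEK1-hi and 19.0 FPKM in MEK1-low. Ndrg1, a stress-responsive gene, had 49.2 FPKM in MEK1-hi and 47.4 FPKM in MEK1-low. Ankrd37, an ankyrin repeat gene at a locus shared with Ufsp2, had 2.06 FPKM in MEK1-hi and 1.66 FPKM in MEK1-low.

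Around these genes, 7 further pathway lists were examined in the authors' deposited table. Of 8 glucose and lactate transporters and partners, 0 were called, 4 lay above 0 and 4 below. An unadjusted p under 0.05 was found for 1 of them, Slc2a6, with 27.2 FPKM in MEK1-hi and 17.8 FPKM in MEK1-low (log2 fold change 0.61, p = 0.0162, q = 0.445 in the authors' deposited table). Slc2a1, the GLUT1 transporter, had 77.9 FPKM in MEK1-hi and 58.6 FPKM in MEK1-low (log2 fold change 0.41, p = 0.0809 in the authors' deposited table), and Bsg, the chaperone of the lactate transporters, had 209 FPKM in MEK1-hi and 216 FPKM in MEK1-low, at a locus that 49 rows share. Of 11 tested paralogs of glycolysis enzymes, 1 was called higher, Hk3, and 0 lower, with 4 above 0 and 7 below. Pyruvate dehydrogenase and its regulators had 0 of 11 called and 5 above 0, with 40.2 FPKM of Pdha1 in MEK1-hi and 42.2 FPKM in MEK1-low, and 41.2 FPKM of Dld in MEK1-hi and 43.0 FPKM in MEK1-low. The 10 tested HIF subunits and regulators of oxygen sensing had 0 called and 5 above 0. An unadjusted p under 0.05 was found for 1 of them, Vhl, with 17.0 FPKM in MEK1-hi and 11.6 FPKM in MEK1-low (log2 fold change 0.54, p = 0.03925, q = 0.724 in the authors' deposited table). Arnt, the beta subunit, had 34.3 FPKM in MEK1-hi and 37.1 FPKM in MEK1-low, and Cited2, a HIF target that limits HIF's coactivators, had 58.4 FPKM in MEK1-hi and 52.1 FPKM in MEK1-low.

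The pentose phosphate pathway makes NADPH and ribose from glucose, and the tricarboxylic acid cycle burns what enters the mitochondria. All 7 pentose phosphate genes lay above 0, with a median log2 fold change of 0.20 and 0 called, and 5 of 7 stayed above 0 after rescaling. Taldo1, the transaldolase, had 179 FPKM in MEK1-hi and 145 FPKM in MEK1-low, and Tkt, the transketolase, had 119 FPKM in MEK1-hi and 116 FPKM in MEK1-low. Of 17 tricarboxylic acid cycle genes, 15 lay below 0 and 2 above, under both scalings, with a median of -0.10 and 0 called. As deposited, 46.2% of all tested rows lay above 0. Rescaling lowers every row by the same amount, to a median of -0.15 over all tested rows. Mdh2, the malate dehydrogenase, had 173 FPKM in MEK1-hi and 192 FPKM in MEK1-low, and Sdhb, a subunit of succinate dehydrogenase, had 141 FPKM in MEK1-hi and 127 FPKM in MEK1-low.

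Of 24 tested further HIF targets, 2 were called lower, Arg1 and Loxl2, and 0 higher. Over all tested rows, 0.325% were called lower and 0.999% higher. Of the targets, 8 lay above 0 and 16 below, with a median of -0.10. An unadjusted p under 0.05 was found for 4, all lower. Beside the 2 called these were Pgf (log2 fold change -1.08, p = 0.01075 in the authors' deposited table) and Car12 (-0.67, p = 0.0253). Arg1, the arginase, fell to 10.6 FPKM in MEK1-hi, against 32.8 FPKM in MEK1-low (q = 0.00676 in the authors' deposited table). Loxl2, a lysyl oxidase that crosslinks collagen, fell to 10.9 FPKM in MEK1-hi, against 21.98 FPKM in MEK1-low (log2 fold change -1.01, q = 0.0369 in the authors' deposited table). Both are also controlled by other signals than HIF, and the summed fibroblast and fibrosarcoma markers, at 799 FPKM in MEK1-hi and 1347 FPKM in MEK1-low, moved with Loxl2. Their part in that value was not tested.

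**Figure D4:**
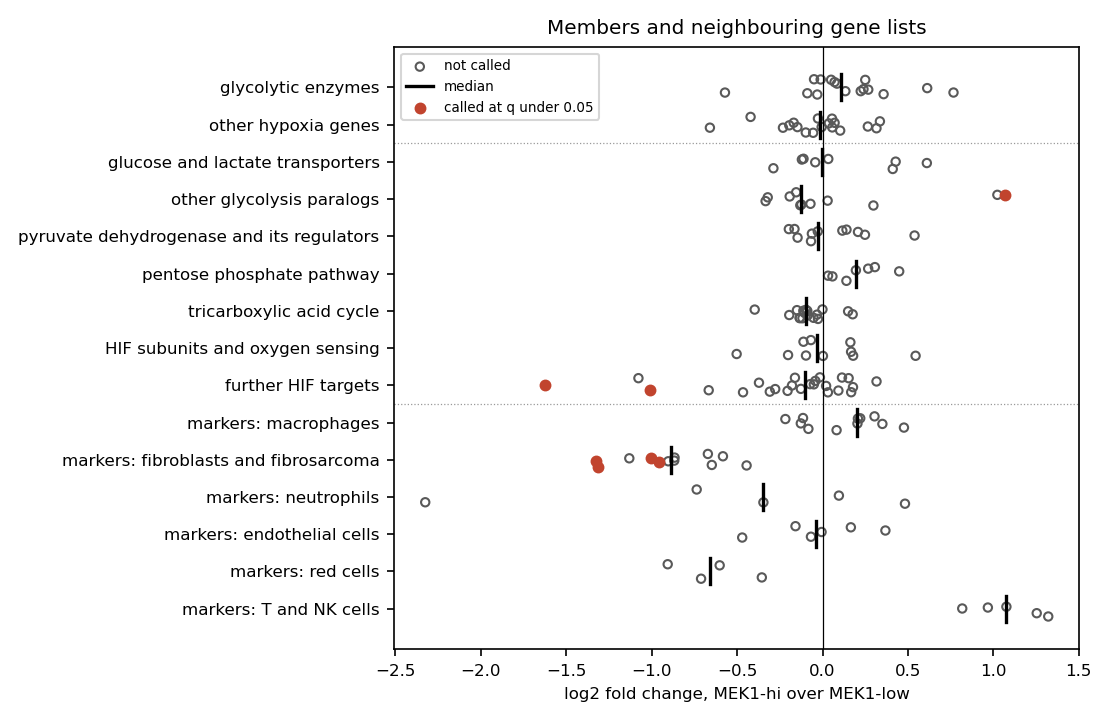
Log2 fold change of MEK1-hi over MEK1-low for each tested gene of the glycolytic enzymes, the other hypoxia genes, 7 further pathway lists and 6 cell marker lists; filled points were called by the authors' test at q under 0.05 and black bars are medians. Among pathway lists the filled points are Hk3 (1.07), Arg1 (-1.62) and Loxl2 (-1.01), and the fibroblast markers lie left of 0.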

How the data were processed

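RNA sequencing compared 3 MEK1-hi with 2 MEK1-low libraries. FastQC 0.73, TopHat, Cufflinks, Cuffdiff and mm10 are named in the submitters' processing notes; the annotation, strand setting and treatment of multiply mapped reads were not given in the sources used here. What the authors deposited was a single Cuffdiff table with an FPKM per group, a test statistic (a score), a p-value and a q-value. Adjusting the deposited p by Benjamini-Hochberg over the 12311 tested rows gave the deposited q within 5e-07. No value per library was available here, so depth is unknown and no SD, interval or new test could be given. Genes were called at the authors' q of 0.05.

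Log2 fold changes were taken between the 2 deposited FPKM values, MEK1-hi over MEK1-low, with no pseudocount or filter. Members and lists were chosen with earlier results of these data known; 146 of 147 further symbols were found. All 34 members are named, and in each further list up to 4 called genes or, with none called, the 2 most abundant, except that red cell markers are given by their sum. Unc5a, Pitrm1, Ufsp2, Pfkm, Ldhb, Epas1, Egln2, Slc2a6, Vhl, Pgf, Car12, Cxcr2, Ly6g and Mmp8 were named outside this rule after their values were seen. Coordinates are the authors' loci, written 1-based. Pseudogenes came from BLAST+ 2.17.0 of the longest coding transcript against GENCODE M21. Python 3.11.15, numpy 2.4.6, pandas 2.3.3 and matplotlib 3.10.9 were used, and the functions were tested on simulated data. Alternatives changed the q threshold, adjustment, source of p, scaling, pseudocount, filter and grouping.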

Additional observations from a re-analysis of the deposited data

How the results depend on the processing

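Among the 34 genes, 0 were called at a q threshold of 0.1 and with a normal p from the test statistic. In the whole table that normal p called 15 rows. A q threshold of 0.01, Benjamini-Yekutieli adjustment, rows with 1 symbol and an FPKM filter of 1 also gave 0. Those settings could add no gene. The threshold of 0.01 is stricter, Benjamini-Yekutieli called 0 rows in the whole table, and both filters kept all 34 genes. An unadjusted p under 0.05 gave 1 gene, a glycolytic enzyme (1 of 16). A threshold of 1.5-fold with no test, chosen after seeing the data, gave 3 genes, of which 2 were glycolytic enzymes and 1 another hypoxia gene. Rescaling to equal FPKM sums moved the median log2 fold change to -0.0788 for all 34 genes. For the glycolytic enzymes it became -0.0225, and for the other hypoxia genes -0.15. All tested rows moved alike, to a median of -0.15. Leaving out the genes with 5 or more annotated pseudogenes, also chosen after seeing the data, moved the glycolytic median to 0.24 and its gap to the other hypoxia genes to 0.26, with fewer genes. The remaining alternatives moved each median by at most 0.1. Leaving out each library was not run, because no value per library was available here. No paired analysis was possible because the table holds 1 pooled value per group.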

Other observations

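The deposited levels of the glycolytic transcripts differed widely along the pathway. Gapdh, often used as an abundant reference transcript, ranked 23 of the 34 genes in MEK1-hi and 19 in MEK1-low by FPKM, and its ratio to Tpi1, the enzyme just before it, was 0.066 in MEK1-hi and 0.0959 in MEK1-low. Pgk1 and Pgam1, the next steps, were also low, with ratios to Tpi1 of 0.0727 and 0.0968 in MEK1-hi and of 0.0737 and 0.101 in MEK1-low. Aldoa, Pkm and Ldha had ratios to Tpi1 of 2.35, 2.17 and 1.45 in MEK1-hi and of 2.09, 1.82 and 1.36 in MEK1-low. By the same BLAST criterion, annotated pseudogenes numbered 169 for Gapdh, 4 for Pgk1, 3 for Pgam1 and 2 for Tpi1. They numbered 13 for Ldha, 8 for Pkm, 5 each for Aldoa and Eno1, and 0 for 21 of the 34 genes. These counts do not say how many reads the copies took. The part of such copies in these levels was not tested. The 21 genes without a copy had a median log2 fold change of 0.07, and the 13 with at least 1 copy had -0.01. The 5 genes with 5 or more copies had 0.07, and all tested rows had -0.02.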
